A study of Mus musculus with 7 samples.

Results

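Nodal, its co-receptor Cripto (gene Tdgf1) and its inhibitors Lefty1 and Lefty2 were followed day by day in mouse embryonic stem cells treated with retinoic acid. The 4 genes were chosen by name, from rows with the symbol Nodal or Tdgf1 or a symbol starting with Lefty, and they are 4 of the 12071 gene symbols listed. The table holds 15296 transcript rows and is read as 1 row per symbol, that of highest mean; each of the 4 genes has a single row. Because the genes were picked with results of these data known, their levels are given as a description, without a test.

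The cells were CCE, an embryonic stem cell line grown on gelatin without feeder cells. The day 0 library came from cells in medium with LIF, leukemia inhibitory factor, which helps to keep mouse stem cells undifferentiated, and with the DMSO vehicle. The libraries of days 1, 2, 3, 4, 5 and 6 came from cells without LIF and with 5 µM retinoic acid, a vitamin A derivative that activates nuclear receptors, for that number of days. There was 1 library per day, so day-to-day differences have no replicate check, and removal of LIF, retinoic acid and time in culture cannot be told apart.

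Nodal is a secreted ligand of the TGF-beta family. It signals through activin receptors with Cripto, an anchored co-receptor of the EGF-CFC family, and the receptors phosphorylate Smad2 and Smad3, which enter the nucleus with Smad4 and bind DNA with partners such as Foxh1. Lefty proteins are secreted, bind Nodal and its co-receptor and block signalling, and they are themselves targets of the pathway, a negative feedback loop. In the mouse embryo this loop acts in the epiblast, in the formation of mesoderm and endoderm and in left-right asymmetry, and mouse embryonic stem cells express all of its parts.

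Levels are log2 normalised reads per transcript, whole read counts scaled by 1 factor per library. The 7 libraries held from 7194325 to 17923852 recovered reads. The number of reads behind a level is given beside it, with 95% exact intervals that cover counting error only. Median levels over all symbols lay 0.12 to 0.29 log2 units above day 0 on days 1 to 5, and differed by -0.86 on day 6. An earlier account of these data found that the day 6 library stood apart with transcript length, which was not measured again here. On day 6 the 4 genes had from 1 to 4 reads, where 1 read is the lowest value listed. Fits and fold comparisons therefore use days 0 to 5, with all 7 libraries as an alternative. The stem cell label was checked on 5 marker genes (Pou5f1, Sox2, Nanog, Zfp42 and Esrrb), all listed, which summed to 667 normalised reads on day 5, against 50335 on day 0. Over the same days the sum of 5 extraembryonic endoderm markers was 87011 on day 5, against 6928 on day 0, and that of 4 mesenchyme markers was 29650 on day 5, against 419 on day 0. Sparc made up most of the endoderm sum on both days, at a level of 16.09 on day 5 against 12.63. The other endoderm markers, Gata4, Gata6, Sox7 and Dab2, were each higher on day 5 as well. The sum of 4 neural progenitor markers was 4388 on day 5, against 653 on day 0, but the 4 did not move alike. Sox11 stood at 11.50 on day 5 against 7.51 on day 0, and Nes at 10.25 against 7.39. Pax6 stood at 7.93 against 7.71, and Sox1 was lower, at 5.30 against 6.56. Of 5 mesendoderm markers 2 were listed, Foxa2 and Sox17. In such bulk RNA, fewer cells of a type and less RNA per cell cannot be told apart, and the part of cell composition in what follows was not tested.

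The 4 genes were all high in the stem cells or soon after and all low by day 5, with 4 to 34 reads, but they left in a different order. Cripto was lost first, within 2 days, while Nodal and both Lefty genes were still present, and Lefty1 stood far above its starting level on days 1 and 2. Nodal, Lefty1 and Lefty2 then shared their largest daily drop, between day 2 and day 3, and all were lower again on day 4. On day 5 all 4 genes stood at least 4-fold below day 0, where 4.66% of all symbols did and 12.7% stood at least 4-fold above it. The members' median difference of day 5 from day 0 was -6.51 on the log2 scale, against 0.13 over all symbols.

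**Figure D1:**
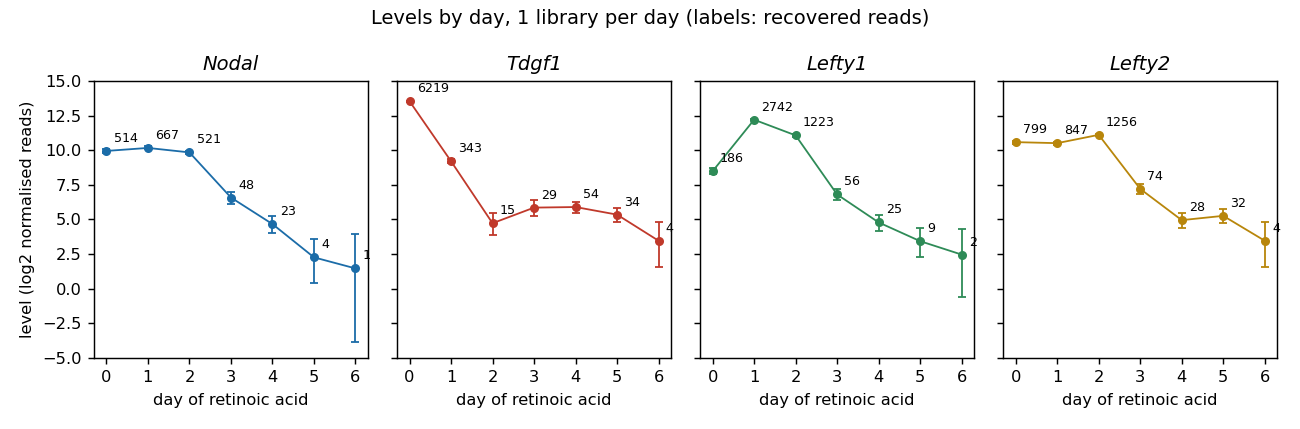
Level of each gene (vertical axis, log2 normalised reads) on days 0 to 6 (horizontal axis), 1 library per day. Points are single libraries, bars are 95% exact Poisson intervals of counting error, and the number at each point is the recovered reads. Tdgf1 is at 15 reads by day 2, when Nodal, Lefty1 and Lefty2 still have 521, 1223 and 1256 reads.

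Tdgf1 encodes Cripto, the co-receptor that Nodal needs to engage the activin receptors (NM_011562, minus strand of chromosome 9, 110842111 to 110848662 in mm9, transcript of 1933 bases). Its level over days 0, 1, 2, 3, 4, 5 and 6 was 13.54, 9.21, 4.72, 5.85, 5.89, 5.35 and 3.46, from 6219, 343, 15, 29, 54, 34 and 4 reads. The day 0 library was high and all others were lower. Ranked from the highest level down, Tdgf1 was number 11931 of all symbols on day 2, against number 154 on day 0. Day 1 was 20.2-fold lower than day 0 (log2 difference -4.34, interval -4.50 to -4.18), and no more than 7 symbols, Tdgf1 included, had as low a difference. It was the only one of the 4 genes at least 4-fold lower on day 1, against 1.11% of all symbols. Day 2 was 22.4-fold lower than day 1 (log2 -4.48, interval -5.34 to -3.74), which placed day 2 at 452-fold below day 0, and 2 symbols, Tdgf1 included, were this low.

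Over days 2 to 5 Tdgf1 stayed low without a further decline. Day 6, with 4 reads, lay below day 5 as deposited (log2 -1.89, interval -3.84 to -0.40). Of the 12071 symbols, 4272 had as low a difference. The median over all symbols, against day 0, was -0.86 on day 6 and 0.29 on day 5. No further fall of Tdgf1 itself is therefore read from day 6. The Tdgf1 level on day 3 was 2.19-fold that of day 2 (log2 1.13, interval 0.18 to 2.13), and day 4 was likewise above day 2 (log2 1.17, interval 0.32 to 2.10). Days 4 and 3 differed by 0.042 (interval -0.63 to 0.75), days 5 and 3 by -0.51 (interval -1.27 to 0.26), and days 5 and 2 by 0.62 (interval -0.29 to 1.60), so these neighbours in the order of levels did not differ beyond counting error, except days 5 and 2 after quantile normalization (log2 1.02, interval 0.11 to 2.01). Reads of Tdgf1 could in part belong to another copy: of the 50-base windows of its annotated transcript, 12.5% occur unchanged in the pseudogene Tdgf1-ps1, and how reads with several matches were counted is not stated.

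Nodal, the ligand (NM_013611, plus strand of chromosome 10, 60880719 to 60888085 in mm9, transcript of 2097 bases), stayed near its day 0 level for 2 days and was then lost. Over days 0, 1, 2, 3, 4, 5 and 6 the level was 9.95, 10.17, 9.84, 6.58, 4.66, 2.26 and 1.46, from 514, 667, 521, 48, 23, 4 and 1 reads. These 3 first days were the high ones. Day 2 minus day 1 was -0.32 (interval -0.49 to -0.16), and day 2 minus day 0 was -0.11 (interval -0.28 to 0.073). Whether day 2 lay below day 0 depended on the scaling, since the difference was -0.32 (interval -0.50 to -0.15) with the libraries centred on their medians and -0.23 (interval -0.41 to -0.051) after quantile normalization. Day 1 stood slightly above day 0 (log2 0.22, interval 0.050 to 0.39), but not beyond counting error after median-centring (log2 0.094, interval -0.074 to 0.26), quantile normalization or the length correction.

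Day 3 was 9.6-fold lower than day 2 for Nodal (log2 -3.26, interval -3.72 to -2.83), and 10 symbols, Nodal included, had as low a difference. Day 4 was 3.78-fold lower than day 3 (interval of the log2 difference -2.70 to -1.17) and day 5 was 5.3-fold lower than day 4 (interval -4.40 to -0.86), each among the lowest steps of that day, with 17 and 5 symbols as low. Day 5 against day 0 gave a log2 difference of -7.69 (interval -9.57 to -6.33). The last value rests on 4 reads, so its fold is imprecise. No 50-base window of the Nodal transcript occurs in another annotated gene.

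Lefty1 encodes a secreted Nodal inhibitor (NM_010094, plus strand of chromosome 1, 182865169 to 182868532 in mm9, transcript of 1608 bases). The deposited table gives Stra3, a name from screens for transcripts stimulated by retinoic acid, among its synonyms. Lefty1 levels over days 0, 1, 2, 3, 4, 5 and 6 were 8.48, 12.21, 11.07, 6.80, 4.78, 3.43 and 2.46, from 186, 2742, 1223, 56, 25, 9 and 2 reads. Lefty1 was the only one of the 4 genes that stood at least 4-fold above day 0 on day 1, 13.2-fold higher (log2 3.72, interval 3.51 to 3.95), where 2.22% of all symbols did. Ranked by level, Lefty1 was number 588 of all symbols on day 1, against number 6842 on day 0.

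Day 2 was already below day 1 for Lefty1 (log2 -1.13, interval -1.23 to -1.03) and still 6.03-fold above day 0. Day 3 was 19.3-fold lower than day 2 (log2 -4.27, interval -4.68 to -3.88), and just 2 symbols, Lefty1 included, had as low a difference. Days 3, 4 and 5 lay below day 0, and each lay below the day before it beyond counting error. Day 5 against day 0 gave a log2 difference of -5.05 (interval -6.21 to -4.10), and days 6 and 5 did not differ beyond counting error (log2 -0.97, interval -4.22 to 1.30).

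Lefty2, the second inhibitor gene (NM_177099, plus strand of chromosome 1, 182823249 to 182829233 in mm9, transcript of 2465 bases), followed Nodal more than it followed Lefty1. Lefty2 levels over days 0, 1, 2, 3, 4, 5 and 6 were 10.58, 10.51, 11.11, 7.20, 4.95, 5.26 and 3.46, from 799, 847, 1256, 74, 28, 32 and 4 reads. Day 1 minus day 0 was -0.074 (interval -0.22 to 0.067), and it lay beyond counting error after median-centring (log2 -0.20, interval -0.34 to -0.056) and the length correction (log2 -0.18). Day 2 was its highest day, 1.44-fold above day 0 (log2 0.53, interval 0.40 to 0.66).

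Day 3 was 15-fold lower than day 2 for Lefty2 (log2 -3.91, interval -4.27 to -3.57), with 4 symbols as low, and day 4 was 4.78-fold lower than day 3. Days 5 and 4 did not differ beyond counting error (log2 0.31, interval -0.47 to 1.10), with 32 and 28 reads, while Lefty1 and Nodal were both lower on day 5 than on day 4. On day 3 Nodal, Lefty1 and Lefty2 all stood at least 4-fold below day 2, 3 of the 4 genes, against 0.572% of all symbols, while 0.812% of all symbols stood at least 4-fold above it.

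**Figure D2:**
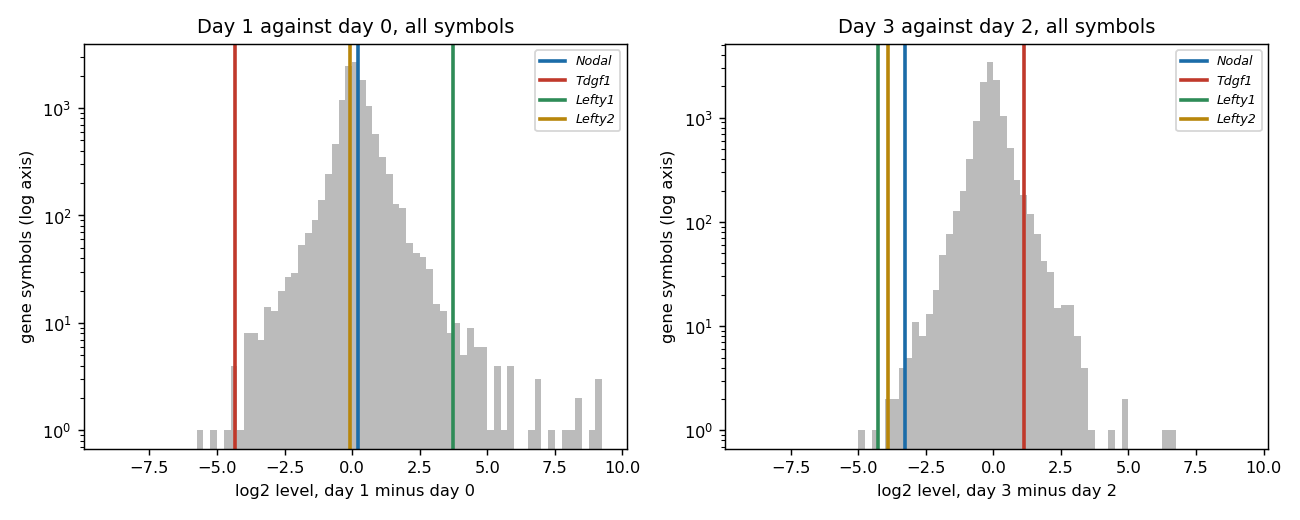
Number of gene symbols (vertical axis, log scale) by log2 difference between 2 libraries (horizontal axis), for day 1 minus day 0 on the left and day 3 minus day 2 on the right, with the 4 genes as coloured lines. On the left Tdgf1 lies at -4.34 and Lefty1 at 3.72 with Nodal and Lefty2 near 0; on the right Nodal, Lefty2 and Lefty1 lie between -3.26 and -4.27 and Tdgf1 at 1.13.

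The balance between the genes, as reads per kilobase of transcript within each library, differed between days 0 and 1. On day 0 Lefty1 had 0.357 times the reads per kilobase of Lefty2 (interval 0.303 to 0.419), on day 1 it had 4.96 times (4.59 to 5.37) and on day 2 it had 1.49 times (1.38 to 1.62). On days 3 and 4 the ratio did not differ from 1 beyond counting error, and on day 5 it was 0.431 (0.181 to 0.924). The pair share sequence: 17.9% of the 50-base windows of the Lefty1 transcript occur in Lefty2 and 11.6% of those of Lefty2 occur in Lefty1, so a part of the reads of each gene may have been counted for the other or dropped.

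The summed inhibitors had 1.79 times the reads per kilobase of Nodal on day 0, 6.44 times on day 1 and 5.11 times on day 2. Over days 3, 4 and 5 this ratio was 2.83, 2.45 and 9.74, the last from 41 Lefty reads and 4 Nodal reads. Lefty2 alone stayed between 1.04 and 2.05 times Nodal on days 0 to 4 and was at 6.81 times on day 5 (interval 2.41 to 26.5), and Lefty1 alone lay between 0.472 and 5.36 times Nodal.

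The co-receptor stood above its ligand on day 0, far below it on day 2 and above it again on days 4 and 5, when both were low. Tdgf1 had 13.1 times the reads per kilobase of Nodal on day 0 (interval 12.0 to 14.4), 0.558 times on day 1 (0.488 to 0.636) and 0.0312 times on day 2 (0.0174 to 0.0520). On day 3 the ratio was 0.655 (0.399 to 1.06) on day 4 it was 2.55 (1.54 to 4.35) and on day 5 it was 9.22 (3.29 to 35.8), the last from 34 Tdgf1 reads and 4 Nodal reads. Of days 0 to 5, day 2 had the lowest Tdgf1 level, while Nodal still had 521 reads.

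**Figure D3:**
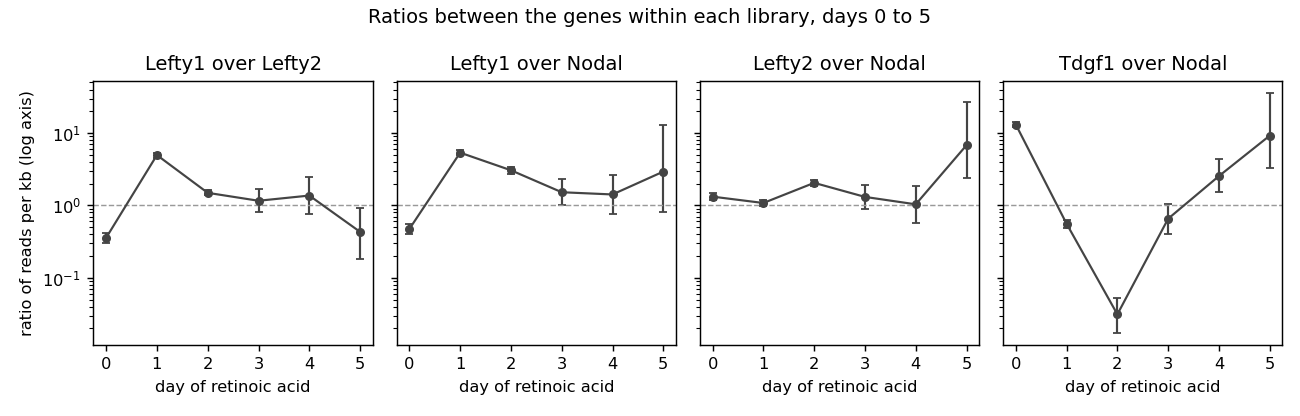
Ratio of reads per kilobase between 2 of the genes (vertical axis, log scale) on days 0 to 5 (horizontal axis), 1 library per day, with 95% exact binomial intervals of counting error and a dashed line at 1. Lefty1 over Lefty2 is 0.357 on day 0 and 4.96 on day 1, and Tdgf1 over Nodal is lowest on day 2 at 0.0312.

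The stretches just before the starts of Nodal and Tdgf1 are shown because the genes were far apart on day 2, with 521 reads of Nodal and 15 of Tdgf1. RefSeq's promoter table for GRCm38.p6, a different build from the mm9 of the deposited table, matched 2 of the 4 genes. They lie at chr10:61417722-61417971 on the plus strand and chr9:110946159-110946408 on the minus strand, and each is the 250 bases before the start, 5′ to 3′. Capitals mark the longest run of letters that occurs more than once without overlap.
Nodal: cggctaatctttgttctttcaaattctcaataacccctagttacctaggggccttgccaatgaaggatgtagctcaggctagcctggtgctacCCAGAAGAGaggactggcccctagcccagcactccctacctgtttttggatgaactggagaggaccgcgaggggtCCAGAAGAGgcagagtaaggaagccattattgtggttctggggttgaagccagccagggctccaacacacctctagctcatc
Tdgf1: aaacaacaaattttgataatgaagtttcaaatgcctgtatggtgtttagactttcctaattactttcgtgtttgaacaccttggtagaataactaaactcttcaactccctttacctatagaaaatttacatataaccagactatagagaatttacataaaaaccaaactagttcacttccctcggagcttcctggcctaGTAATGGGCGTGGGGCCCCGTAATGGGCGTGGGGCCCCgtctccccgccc

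The Tdgf1 stretch holds a direct tandem repeat of 19 bases that starts 50 bases before the gene's start, with its second copy 31 bases before it. A repeat of that length or more occurs in 1.23% of the 32851 stretches in the table. Each copy contains the GC-rich box gggcgtgg, which 4.79% of all stretches hold on either strand and 0.615% hold at least 2 times; the repeat and this box were looked for after the sequences were seen. The longest repeat before Nodal has 9 bases, a length that 34.9% of all stretches reach. The G and C content was 53.2% before Nodal and 42.0% before Tdgf1, against a median of 52.4%.

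Neither stretch holds any of the 7 motifs searched on both strands. The Foxh1 site searched was tgtggatt, which 0.718% of all stretches hold. The palindromic Smad box was gtctagac, held by 0.167%, and the short Smad element, held by 17.1%, was cagaca. The POU octamer, in 1.60% of all stretches, was atgcaaat. A core site of Sox factors, attgtt, occurs in 9.42%, and the start-site box of the form tataaa occurs in 12.4%. The retinoic acid response element, as a direct repeat with a spacing of 5, occurs in 0.0883%. The absence says that these letters are not in this window.

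Lefty2 and Lefty1 lie on the same strand with 35935 bases between them, and differed by -3.91 and -4.27 between days 3 and 2. Outside the pair, Tmem63a, 4115 bases after Lefty1, differed by -0.050 between days 3 and 2, and BC031781, before Lefty2, by -0.15.

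Next to Tdgf1, Lrrc2, a leucine-rich repeat gene that starts 5385 bases away on the other strand, had levels of 9.46, 6.87 and 5.34 over days 0, 1 and 2. Its day 1 minus day 0 difference was -2.59, beside -4.34 for Tdgf1. Als2cl, on the other side of Tdgf1, differed by -0.0020 between days 1 and 0. Beside Nodal, Eif4ebp2, which encodes a translation inhibitor, differed by -0.29 between days 3 and 2, against -3.26 for Nodal. The other listed neighbours of Nodal were X99384, at -0.88, and Lrrc20, at -0.65. These neighbours lie within 60000 bases and their values are described without a test.

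The courses most like each gene were found by the root mean square difference of the log2 change from day 0 over days 1 to 5, among symbols with at least 50 reads on that gene's highest day. For Nodal, of 10068 candidates, the nearest was Foxh1 at 0.81 log2 units, the gene of the DNA-binding partner of Smad2 and Smad3, followed by Qprt, an enzyme gene of NAD synthesis, at 0.82, Lefty2 at 1.11, Dppa5a at 1.17 and B3gnt7 at 1.28. The median candidate lay at 4.47. Foxh1 levels over days 0, 1, 2, 3, 4 and 5 were 9.66, 10.15, 8.70, 6.75, 4.72 and 3.43. Its day 2 minus day 0 difference was -0.96 as deposited, beside -0.11 for Nodal. Whether Nodal lay below day 0 on day 2 depended on the scaling.

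For Lefty2 the nearest were Qprt at 0.88, Foxh1 at 0.90, B3gnt7, a glycosyltransferase gene, at 0.92, and Cabp1 and the metallothionein gene Mt2, both at 1.10. Nodal and Lefty2 lay 1.11 apart, Lefty1 and Lefty2 2.25, and Nodal and Lefty1 2.53. Tdgf1 lay 4.92 from Nodal, 5.22 from Lefty2 and 7.17 from Lefty1.

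For Lefty1 the nearest was Cdx1 at 1.11, a homeobox gene known as a direct retinoic acid target, with levels of 4.75, 9.51, 6.07 and 3.80 over days 0, 1, 2 and 3. Lrtm2 and Alpl, tissue-nonspecific alkaline phosphatase, followed at 1.57, then Calcoco2 at 1.68 and Dmrt1 at 1.75. For Tdgf1 the nearest was Nr0b1, the gene of the orphan receptor Dax1, at 1.29, with a level of 4.52 on day 2, against 11.50 on day 0. Then came the antisense transcript Nphs1as at 1.37, then septin 1, whose symbol the table gives as 1-Sep, the activin subunit gene Inhbb at 1.63 and the nuclear receptor gene Esrrb at 1.68.

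**Figure D4:**
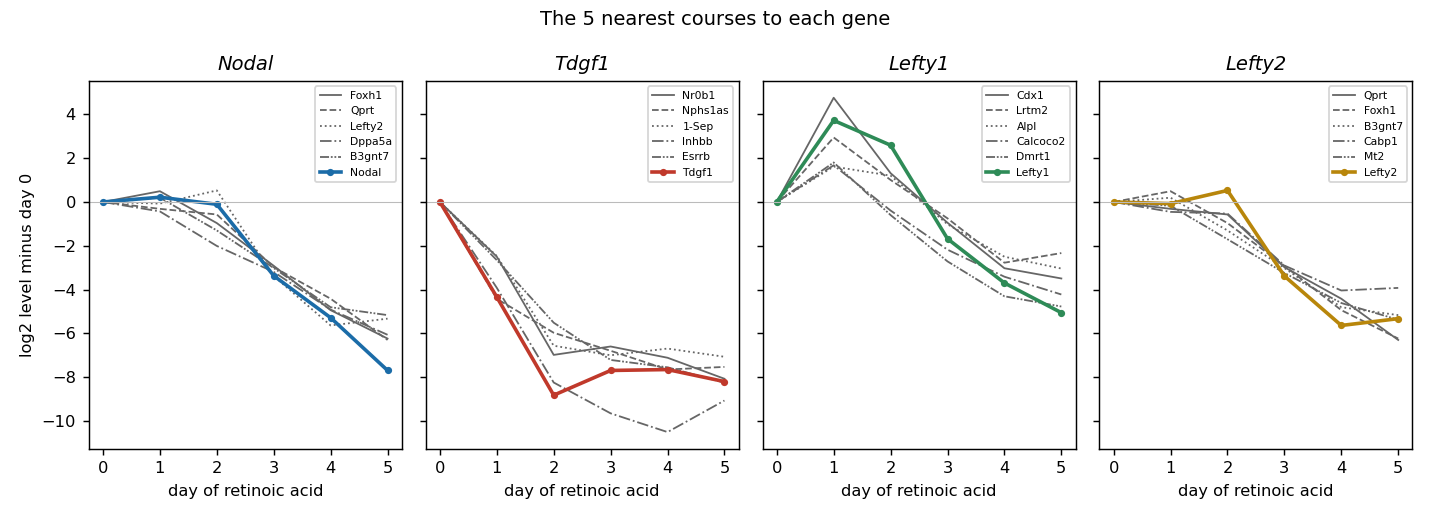
Change of the log2 level from day 0 (vertical axis) on days 0 to 5 (horizontal axis), 1 library per day, for each gene (coloured) and the 5 genes with the nearest course (grey line styles). Foxh1 runs with Nodal at a distance of 0.81 and Cdx1 with Lefty1 at 1.11.

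The rest of the pathway was described with 7 lists of 65 genes, of which 50 were listed, and tested with a straight line on day over days 0 to 5 (limma, adjusted p under 0.05 over all 12071 symbols). Of the 50 pathway genes, 20 rose, 6 fell and 24 were not called, and among all symbols 25.9% rose and 22.1% fell. Scaling moved the split over all symbols, which was 3132 rising and 2662 falling as deposited, 2554 and 3567 after median-centring, and 2582 and 3346 after quantile normalization. The pathway genes split into 19 rising and 7 falling after median-centring, and 20 and 8 after quantile normalization. As deposited, the median slope of the 50 pathway genes was 0.10 log2 units per day, against 0.013 over all symbols. On day 5, 16 pathway genes stood at least 4-fold above day 0 and 5 at least 4-fold below it, beside 12.7% and 4.66% of all symbols. Over all 7 libraries limma called 1 rising gene (Tgfb3) and 3 falling ones (Gdf3, Foxh1 and Pcsk6), where 2.58% of all symbols rose and 5.2% fell. Leaving out single days moved the count of rising genes between 13 (without day 0) and 22 (without day 2), and it was 14 without day 4. The count of falling genes lay between 4 without day 4 and 7 without day 1.

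**Figure D5:**
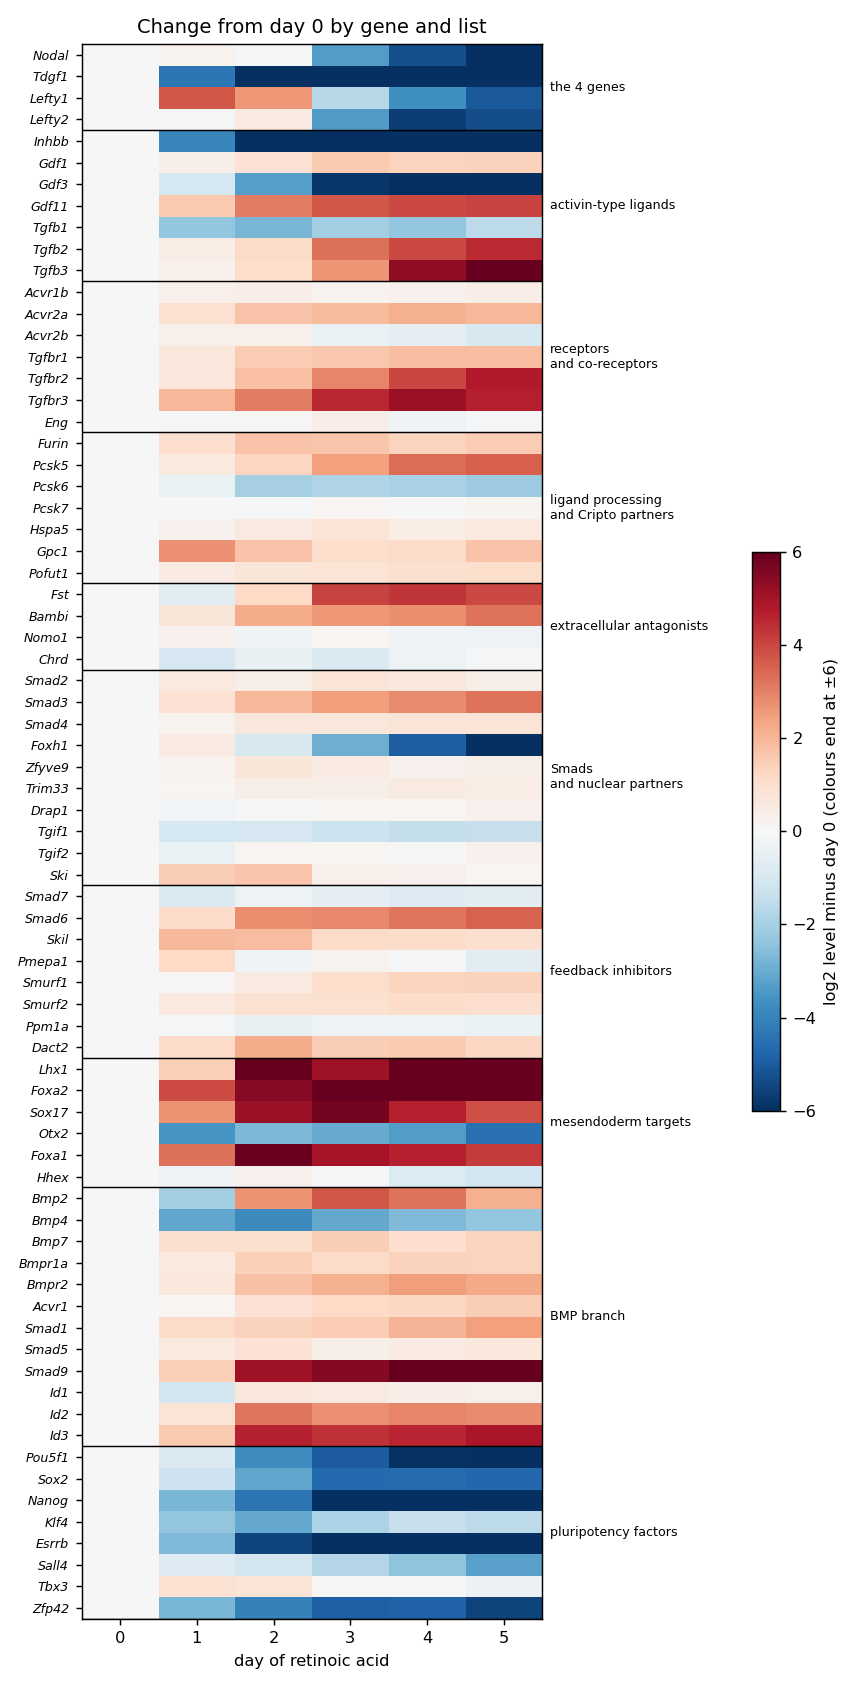
Difference of the log2 level from day 0 (colour, red higher and blue lower, ending at ±6) for the 4 genes and the pathway genes shown (rows, grouped by list) on days 0 to 5 (columns), 1 library per day. Besides the 4 genes, Inhbb, Gdf3 and Foxh1 are deep blue by day 5, at -9.06, -10.94 and -6.24, while most receptor rows are red or pale.

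Among the other ligands of the receptor family directions were mixed. Of 7 listed ligand genes, 4 rose and 2 fell, beside 25.9% and 22.1% of all symbols. Gdf3, a Nodal-related ligand that also uses Cripto, fell by 2.22 ± 0.12 (SE) log2 units per day (limma adjusted p = 0.0014), with 1 read on day 5, against 1224 reads on day 0. Inhbb, a subunit gene of activin B, fell by 1.90 ± 0.43 per day (limma adjusted p = 0.0134), with levels of 11.64, 7.73, 3.40 and 2.58 over days 0, 1, 2 and 5. The TGF-beta ligand genes Tgfb3 (slope 1.47, 2046 reads on day 5 against 10 on day 0) and Tgfb2 (1.00) rose, as did Gdf11 (0.81) and Gdf1 (0.30), and Tgfb1 had a slope of -0.20 (limma adjusted p = 0.414). Without day 0, Inhbb and Gdf1 were no longer called (limma adjusted p = 0.0924 and 0.0968), and Gdf1 also not without day 4 or after quantile normalization (limma adjusted p = 0.0574 and 0.0560).

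The receptor genes did not share the loss. Of 7 receptor and co-receptor genes listed, 4 rose and 1 fell, beside 25.9% and 22.1% of all symbols. Acvr1b, the type I receptor of Nodal, stood between 9.46 and 9.85 on days 0 to 5, with a slope of 0.049 (limma adjusted p = 0.316). Of the type II receptors, Acvr2a rose (slope 0.40, limma adjusted p = 0.00958) and Acvr2b fell (-0.23, limma adjusted p = 0.0272). Tgfbr2 (1.00), Tgfbr3 (0.98) and Tgfbr1 (0.37) of the TGF-beta receptors rose, Tgfbr2 with 693 reads on day 5 against 16 on day 0. The call of Acvr2a was lost without day 0 (limma adjusted p = 0.0504). That of Acvr2b was lost without day 1, day 4 or day 5, with 0.144 as the highest limma adjusted p.

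Of 7 genes for ligand processing and Cripto partners, 2 rose and 1 fell, close to the 25.9% and 22.1% of all symbols. Pcsk6, the protease Pace4 that cleaves the Nodal precursor, fell (slope -0.44 ± 0.10, limma adjusted p = 0.0129) and Pcsk5 rose (0.78), while Furin, the other Nodal convertase, had a slope of 0.24 (limma adjusted p = 0.0788). Pofut1, which adds fucose to Cripto, rose by 0.19 per day. Gpc1, a glypican, stood at 11.17 on day 1, against 8.45 on day 0, without a called slope, and the chaperone gene Hspa5 stayed between 13.30 and 14.10. Without day 0 neither Pcsk6 nor Pofut1 was called (limma adjusted p = 0.0845 and 0.0577).

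Of 8 antagonist genes fixed as a list, 4 were in the table, of which 2 rose, beside 25.9% of all symbols. Fst, follistatin, which binds activin, had levels of 6.59, 5.91, 7.79 and 10.65 over days 0, 1, 2 and 3 (slope 1.07 ± 0.21, limma adjusted p = 0.00808). Its day 3 minus day 2 difference was 2.86, in the same step as the largest daily drops of the Lefty genes. Bambi, a decoy receptor, rose by 0.65 per day. Nomo1 and Chrd, the BMP antagonist chordin, had slopes of -0.070 and 0.043 and were not called.

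Among 10 Smads and nuclear partners, 3 rose and 2 fell, close to the 25.9% and 22.1% of all symbols. Foxh1 fell by 1.41 ± 0.16 per day (limma adjusted p = 0.00269) and stood 75.4-fold lower on day 5 than on day 0, with 9 reads against 422. Smad2 stayed between 10.04 and 10.80 (slope 0.074, limma adjusted p = 0.318), while Smad3 rose by 0.65 ± 0.066 (limma adjusted p = 0.00241), and stood at 11.34 on day 5 against 8.10 on day 0. Smad4, the shared partner, rose by 0.16 and Tgif1, a corepressor, fell by 0.24 per day. Trim33 rose by 0.10, a direction that turned under the length correction (slope -0.0024), and it was not called after median-centring (limma adjusted p = 0.187). Smad4 and Tgif1 were not called without day 0 or day 4 (highest limma adjusted p = 0.107 and 0.120), and Trim33 also not without day 1 or day 3 (highest 0.179, without day 0). The corepressor gene Ski had its highest levels on days 1 and 2, 13.12 and 13.30, against 11.65 on day 0.

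Of 8 feedback inhibitors, 3 rose and none fell, beside 25.9% and 22.1% of all symbols. These were Smad6, an inhibitory Smad of the BMP branch (slope 0.69), and the ubiquitin ligase genes Smurf1 (0.32) and Smurf2 (0.19). Skil and Pmepa1, known as direct targets of Smad2 and Smad3 had their highest level on day 1, with no called slope. Skil stood at 12.15 on day 1, against 10.20 on day 0. Pmepa1 had 9.94, 11.15 and 9.70 over days 0, 1 and 2. Smad7, another such target, was 9.45 on day 1 against 10.30 on day 0, with a slope of -0.094 (limma adjusted p = 0.256). Smurf2 was not called without day 0, without day 4 or under the length correction (limma adjusted p = 0.158, 0.0838 and 0.0633).

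Genes known as Nodal targets in mesoderm and endoderm did not follow the loss of the Nodal and Lefty genes. Of 7 listed, 2 rose, Foxa2 (slope 1.11 ± 0.28, limma adjusted p = 0.0177) and Lhx1 (1.28 ± 0.35, limma adjusted p = 0.0243), beside 25.9% of all symbols. There were 5 at least 4-fold above day 0 on day 5, beside 12.7% of all symbols, and 4 on day 1, beside 2.22%. Sox17 was highest on day 3 at 9.85 and Foxa1 on day 2 at 10.05. Otx2, an anterior and epiblast factor, was the one at least 4-fold below day 0, with 6 reads on day 5 against 83. Foxa2 and Sox17 are also expressed in extraembryonic endoderm, whose markers stood higher over the same days, and the part of such cells was not tested. Foxa2 was not called without day 4 (limma adjusted p = 0.0536), and Lhx1, with 1 read on day 0, not without day 0, day 1 or day 4 (highest limma adjusted p = 0.146).

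The BMP branch, which signals through other Smads, was listed with 12 genes. Of these 7 rose and none fell, beside 25.9% and 22.1% of all symbols. Smad9 rose by 1.48 per day, Id3, a target gene of BMP signalling, by 0.95 ± 0.21 (limma adjusted p = 0.0126), and Id2, Bmpr2, Smad1, Acvr1 and Bmpr1a by 0.25 to 0.57. The ligand gene Bmp4 was at 7.55 on day 1, against 10.65 on day 0 (slope -0.27, limma adjusted p = 0.407). Id3 was not called without day 0 (limma adjusted p = 0.0815), and Id2 and Bmpr1a not without day 0, day 1, day 3 or day 4 (highest limma adjusted p = 0.190 and 0.184, both without day 0), and Bmpr1a also not under the length correction (limma adjusted p = 0.0505).

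Of 9 pluripotency factors, 7 fell and none rose, beside 22.1% and 25.9% of all symbols, with a median slope of -1.01 per day. Their losses did not all share a day. The difference of day 1 from day 0 was -2.74 for Nanog, -2.66 for Esrrb, -2.75 for Zfp42 and -0.88 for Pou5f1, beside -4.34 for Tdgf1. In the step of day 3 minus day 2, in which Nodal differed by -3.26, Nanog differed by -1.94 and Pou5f1 by -1.27. The median of the 9 factors in that step was -1.27. Among them 1 stood at least 4-fold lower on day 3 than on day 2, beside 0.572% of all symbols.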

How the data were processed

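Total RNA of CCE cells on 7 days, with 1 library per day, was freed of ribosomal RNA and sequenced from a stranded kit, per the labels' protocols; BWA 0.7.3 and build mm9 are named in the submitters' processing notes, and the counting, strand and scaling methods have no statement in those notes. The deposited values are log2 normalised reads per RefSeq transcript. Raised from the log, all values up to 1000 reads lay within 0.05 of whole multiples of the library's lowest value, taken as 1 read; a whole number added before scaling would look the same.

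The members and gene lists were chosen with earlier results of these data known. All 12071 symbols were kept, since 0 of the 4 genes pass a mean filter at the 40th percentile. Slopes on day were fitted over days 0 to 5 with limma 3.58.1 under R 4.3.3 (moderated variances that follow the mean level, Benjamini-Hochberg adjustment over all symbols), and tested on simulated data; p-values measure scatter around the line, and the labels do not say whether days are separate cultures. Intervals are exact Poisson for levels and exact Clopper-Pearson for differences and ratios (scipy 1.17.1, Python 3.11.15), at 95%; with no molecular identifiers, reads are not separate molecules. Named genes were the members, every listed gene of the lists, the markers and the 5 nearest courses; positional neighbours were added later. Some genes counted in the lists are not reported here by name. Alternatives were other scalings, a length correction, a mean filter, a curved fit and leaving out days.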

Additional observations from a re-analysis of the deposited data

How the results depend on the processing

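Over all 7 libraries the pathway lists gave 1 rising and 3 falling genes, against 20 and 6 over days 0 to 5, and with the mean filter, which leaves 31 of the 50 genes, 12 and 2. Leaving out 1 day gave 13 to 22 rising and 4 to 7 falling genes. With a 2-fold threshold 24 pathway genes were higher and 8 lower on day 5 (16 and 5 at 4-fold), beside 25.9% of all symbols at least 2-fold higher and 15.6% lower. On log2(RPM + 1), day 5 minus day 0 was -5.36 for Nodal, -7.63 for Tdgf1, -3.63 for Lefty1 and -4.74 for Lefty2, smaller because of the added 1. With quantile normalization, day 1 minus day 0 was -4.15 for Tdgf1 and 3.46 for Lefty1. Over 7 libraries the nearest course to Tdgf1 was Inhbb at 1.49, with Nr0b1 at 1.65, and that to Lefty1 was Cdx1 at 1.51, and of the 5 nearest genes 4 were shared for Nodal, 5 for Tdgf1, 5 for Lefty1 and 3 for Lefty2. No difference of the 4 genes between day 1 or day 5 and day 0 changed sign under the scalings run. Scalings of the other differences were chosen after seeing the data, and median-centring put day 2 minus day 0 at -0.32 for Nodal. Of the 26 called pathway genes, 23 were called in the same direction under median-centring, quantile normalization and length correction. Every transcript row in place of 1 row per symbol gave 20 rising and 6 falling pathway genes, and the 4 genes have no other row. No paired analysis was possible because each day has 1 library. Depth limits days 5 and 6, where the 4 genes have 1 to 34 reads.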
